A study of Saccharomyces cerevisiae S288C with 9 samples.

Results

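The 10 genes followed here are SWI4, SWI6, MBP1, WHI5, NRM1, YHP1, YOX1, HCM1, TOS4 and PLM2 of budding yeast. They encode transcription factors that act around the switch from G1 into S phase, and repressors and targets of these factors. The transcripts of the 10 genes were measured in 3 strains. The genes were taken by name from the deposited gene counts, as 10 of 7127 annotated rows. Of these, 10 of 10 passed the filter on low counts that left 6133 rows to test. RNA came from Saccharomyces cerevisiae of strain S288C, untreated and collected at mid-log phase in YPD, a rich glucose medium. The strains carried unaltered SET1 (WT), Set1 with serine replaced by alanine (Set1 S228A) or Set1 with the same serine replaced by glutamate (Set1 S228E), and each had 3 libraries that the submitters call biological replicates. Set1 is the yeast enzyme that methylates lysine 4 of histone H3. Alanine cannot carry a phosphate, and glutamate is often used as a stand-in for phosphoserine. The sources used here do not say whether a substitution strain was a single clone, nor which mating type the cells were.

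In late G1, transcription of a large set of yeast genes is switched on by a pair of related DNA-binding complexes. SBF joins Swi4 to Swi6 and acts on genes of cyclins and the cell wall, and MBF joins Mbp1 to Swi6 and acts mainly on genes of DNA replication and repair. Whi5 holds SBF inactive until the cyclin Cln3 and the kinase Cdc28 phosphorylate it, and Nrm1, itself made from an MBF target, shuts MBF off as cells leave G1. Yox1 and Yhp1 are homeodomain repressors that act with Mcm1 on early cell cycle box genes, SWI4 among them. Hcm1 is a forkhead activator of S phase genes, and Tos4 and Plm2 are paralogs with a forkhead-associated domain whose genes are targets of the G1/S factors.

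Library totals ranged from 14455017 to 19658103 gene counts, and the 10 genes held 31 to 1529 counts in any library. Levels are in CPM, gene counts scaled to 1000000 per library, after TMM scaling, which adjusts library totals for differences in composition. The threshold for a call combined a fold change over 1.5 with an adjusted p under 0.05 (Benjamini-Hochberg over 6133 rows, quasi-likelihood test of edgeR), the same cutoffs that the submitters name. A pheromone response list of 12 genes was chosen with earlier results of these data known. In S228A 12 of 12 were called higher, where 4.37% of all 6133 rows were. They summed to 9355 to 10975 CPM per S228A library, against 551 to 743 for WT and 686 to 706 for S228E. How much of the changes below goes with this response was not tested. In bulk RNA, fewer cells in the cell cycle stage that makes a transcript and less of that transcript in each cell cannot be told apart.

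In WT the levels per kilobase of coding sequence ran from HCM1 at 31.8 ± 2.75 CPM per kb (SD, n = 3) to YOX1 at 10.05 ± 4.18. Between them came SWI6 at 29.8 ± 2.17, WHI5 at 27.8 ± 3.28, TOS4 at 26.3 ± 1.47, NRM1 at 26.1 ± 1.77, YHP1 at 20.9 ± 5.99, MBP1 at 19.0 ± 0.603, SWI4 at 10.4 ± 2.36 and PLM2 at 10.2 ± 0.575 CPM per kb. The libraries of neighbours in this order overlapped except at 1 step, between MBP1 and SWI4. SWI4 thus stood below its partner SWI6 and below MBP1 in each of the 3 WT libraries, at 0.292 to 0.400 of the SWI6 level and 0.445 to 0.661 of the MBP1 level per length. The coefficient of variation between WT libraries was 3.16% for MBP1, 5.61% for PLM2 and 6.78% for NRM1, whereas those of SWI4, YHP1 and YOX1 were 22.6%, 28.7% and 41.6%.

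**Figure D1:**
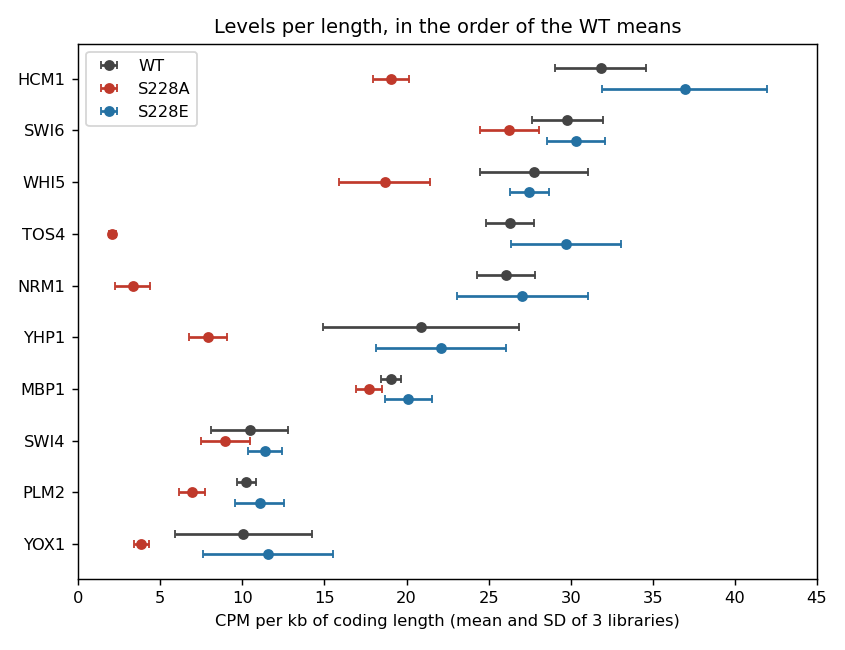
Level of each of the 10 transcripts in CPM per kb of coding length (x axis), with genes in the order of their WT means; points are means and bars SD of 3 libraries of WT, S228A or S228E. In S228A the lowest means were TOS4 at 2.08 and NRM1 at 3.34 CPM per kb, which in WT stood at 26.3 and 26.1. The S228A libraries of NRM1 overlapped those of YOX1, at a mean of 3.86. SWI6 and MBP1 stood at 26.3 and 17.7 in S228A.

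The DNA upstream of these genes is shown because the SBF and MBF complexes are known to act on several of them. The sequence before the first coding base was read from the RefSeq assembly R64, the same build as sacCer3, where 10 of 10 rows had identical start and end in both annotations. It was searched on both strands for the MBF element (MCB, ACGCGT), for its core ACGCG, for the SBF element (SCB, CACGAAA or CGCGAAA) and for 3 other motifs. The core was added to the search after the upstream sequence of NRM1 had been read. An SCB of the form CGCGAAA that follows an A also contains a core, so the 2 counts overlap. Within 600 bases, 8 of 10 genes held a core, against 27.4% of 5986 protein-coding genes, 4 held an SCB, against 14.2%, and 3 held a full MCB, against 6.35%. The same search covered a homeodomain motif (TAATTG), held by 8 of 10 genes against 39.9%, a pheromone response element (TGAAACA), held by 5 against 14.6%, and a forkhead motif (GTAAACA), held by 3 against 719 of those 5986 genes. Within 300 bases, 6 of 10 genes held a core, 2 an SCB and 1 a full MCB, against 15.4%, 8.35% and 3.49% of 5988 genes. The homeodomain, pheromone response and forkhead motifs were then held by 6, 3 and 2, against 23.2%, 7.25% and 7.01%. Each line below gives the stretch that holds the core and SCB matches within 600 bases, plus 20 bases on either side. It runs 5′ to 3′ on the coding strand, with core, MCB and SCB matches in capitals.
TOS4, chrXII:522159-522260, minus strand, 248 to 147 bases before the start codon: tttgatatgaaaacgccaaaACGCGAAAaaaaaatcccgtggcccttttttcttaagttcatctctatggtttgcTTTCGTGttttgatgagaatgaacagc
PLM2, chrIV:1451101-1451163, plus strand, 252 to 190 bases before: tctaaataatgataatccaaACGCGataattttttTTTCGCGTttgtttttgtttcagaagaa
NRM1, chrXIV:642419-642475, plus strand, 271 to 215 bases before: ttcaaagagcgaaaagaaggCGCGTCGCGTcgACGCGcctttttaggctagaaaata
YHP1, chrIV:1362433-1362511, minus strand, 330 to 252 bases before: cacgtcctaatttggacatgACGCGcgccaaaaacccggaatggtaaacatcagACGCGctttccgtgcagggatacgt
HCM1, chrIII:228890-229064, plus strand, 420 to 246 bases before: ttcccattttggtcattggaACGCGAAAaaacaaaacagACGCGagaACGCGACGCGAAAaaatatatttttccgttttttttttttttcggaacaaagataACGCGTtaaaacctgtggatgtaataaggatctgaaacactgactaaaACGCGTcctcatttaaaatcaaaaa
SWI4, chrV:386340-386417, minus strand, 541 to 464 bases before: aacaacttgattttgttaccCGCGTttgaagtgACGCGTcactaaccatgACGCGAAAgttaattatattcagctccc

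HCM1 held 6 cores and 2 SCBs, TOS4 1 core and 2 SCBs, and PLM2 2 cores and 1 SCB, while NRM1 held 3 cores packed within 17 bases and no SCB. YHP1 held 2 cores, 310 and 276 bases before the start codon, and a forkhead match lies between them at 287. SWI4 held 3 cores and 1 SCB farther out. YOX1 held 3 cores spread from 497 to 227 bases before the start codon and no SCB. The single core of MBP1, 545 bases before the start codon, lies within the neighbouring coding row YDL057W, which ends 456 bases upstream, and the TOS4 matches lie beyond the start of the divergent row YLR184W, 93 bases away. SWI6 and WHI5 held neither element within 600 bases. The genes with a pheromone response element within 600 bases were SWI6, WHI5, NRM1, HCM1 and PLM2. These are matches of letters and not measured binding.

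S228A was set against WT to see how the transcripts of the 10 genes differed between these strains. SWI4, SWI6 and MBP1, the genes of the DNA-binding complexes, were not called, and neither were WHI5 and PLM2. TOS4 fell 12.6-fold, NRM1 7.79-fold, YHP1 2.64-fold, YOX1 2.605-fold and HCM1 1.67-fold in S228A. In all, 5 of 10 genes were called lower and 0 higher, where 12.2% of all 6133 rows were called, 7.81% lower and 4.37% higher. The median log2 fold change of the 10 was -0.66, against -0.01 over all rows tested, and 10 of 10 estimates were below 0.

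**Figure D2:**
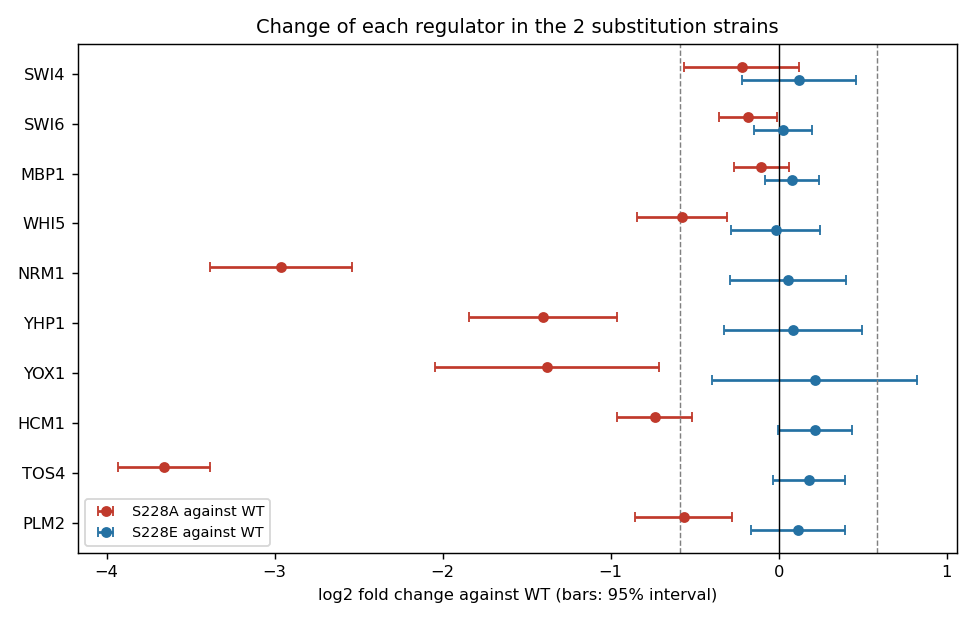
Log2 fold change of each of the 10 genes (x axis) in S228A (red) and S228E (blue) against WT, with bars for the 95% interval and dashed lines at a 1.5-fold change. The S228A estimates of TOS4, NRM1, YHP1 and YOX1 lie from -3.66 to -1.38, those of SWI4, SWI6 and MBP1 from -0.22 to -0.10, and the S228E estimates lie from -0.02 to 0.22.

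Among the activators, SWI4 (YER111C, chromosome V, 382595 to 385876, 1 exon) encodes the DNA-binding subunit of SBF. Its level was 33.8, 26.8 and 42.3 CPM in WT replicates 1 to 3, 31.2, 33.2 and 23.9 in S228A, and 34.1, 41.0 and 37.0 in S228E. The S228A and WT libraries overlapped, and the spread within WT was wider than the gap between the strain means. The log2 fold change in S228A was -0.22 ± 0.16 (SE; 95% interval -0.56 to 0.12; edgeR adjusted p = 0.307).

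SWI6 (YLR182W, chromosome XII, 517940 to 520351), the subunit shared by both complexes, was at 70.4, 67.6 and 77.7 CPM in WT, 64.1, 67.2 and 58.7 in S228A, and 77.2, 68.6 and 73.6 in S228E. The 3 S228A values lay just below the 3 WT values, with 67.2 against 67.6 at the boundary, and the log2 fold change was -0.18 ± 0.08 (edgeR adjusted p = 0.0971). MBP1 (YDL056W, chromosome IV, 352877 to 355378), the DNA-binding subunit of MBF, was at 48.3, 45.9 and 48.7 CPM in WT, 42.1, 46.0 and 44.9 in S228A, and 54.1, 47.1 and 49.8 in S228E. Its S228A and WT values overlapped, and its log2 fold change of -0.10 ± 0.08 was not called (edgeR adjusted p = 0.314).

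Of the repressors that bind the complexes, NRM1 was called lower and WHI5 was not. WHI5 (YOR083W, chromosome XV, 479533 to 480420), the repressor of SBF, was at 28.0, 22.8 and 23.2 CPM in WT, 19.3, 14.6 and 15.8 in S228A, and 23.2, 25.2 and 24.8 in S228E. All 3 S228A values were below all 3 WT values. Its log2 fold change was -0.58 ± 0.12 (edgeR adjusted p = 0.00325), a 1.49-fold decrease that missed the 1.5-fold threshold by little. The row of WHI5 overlaps that of YOR082C on the other strand by 105 bases, so part of its reads may have been left uncounted or may belong to the other strand.

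NRM1 (YNR009W, chromosome XIV, 642690 to 643439) encodes the corepressor of MBF. It was at 19.9, 20.6 and 18.1 CPM in WT, 1.77, 2.38 and 3.36 in S228A, and 23.4, 19.98 and 17.5 in S228E. The S228A libraries were far below the other 6, with 31 to 61 counts each against 252 to 464, and the log2 fold change was -2.96 ± 0.19 (edgeR adjusted p = 1.32e-07). The level of NRM1 relative to WHI5 per length was 0.843, 1.07 and 0.922 in the WT libraries and 0.108, 0.193 and 0.252 in those of S228A. These groups did not overlap, and the log2 ratio differed by -2.44 (exact permutation test, two-sided, p = 0.1, the smallest that 3 against 3 can give; adjusted p = 0.45 over 18 ratio tests).

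The genes of both homeodomain repressors fell. YHP1 (YDR451C, chromosome IV, 1361120 to 1362181) was at 19.5, 29.4 and 17.6 CPM in WT, 7.76, 7.59 and 9.80 in S228A, and 27.8, 19.4 and 23.2 in S228E. YOX1 (YML027W, chromosome XIII, 221406 to 222563) was at 11.5, 16.5 and 6.86 CPM in WT, 5.08, 4.18 and 4.13 in S228A, and 18.5, 12.1 and 9.64 in S228E. For both genes all S228A values lay below all WT values, in spite of the spread within WT, where replicate 2 was high and replicate 3 low. The log2 fold changes were -1.40 ± 0.20 for YHP1 (edgeR adjusted p = 0.000176) and -1.38 ± 0.31 for YOX1 (edgeR adjusted p = 0.00410). The ratio of YHP1 to YOX1 per length averaged 2.16 in WT and 2.04 in S228A, a log2 difference of -0.08 (exact permutation test, two-sided, p = 0.7; adjusted p = 0.788). The pair also shares a genomic setting: YHP1 lies beside RPS18A and YOX1 beside RPS18B, a pair of ribosomal protein genes.

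HCM1 (YCR065W, chromosome III, 229310 to 231004), the forkhead activator that follows the G1/S wave, was at 58.7, 53.6 and 49.4 CPM in WT, 33.2, 30.2 and 33.6 in S228A, and 72.4, 57.1 and 58.3 in S228E. The S228A libraries lay in a narrow band below the others, and the log2 fold change was -0.74 ± 0.10 (edgeR adjusted p = 0.000127). Upstream it held 6 cores, the most of the 10 genes, and 2 SCBs that overlap cores. Its decrease was the smallest of the 5 called, and a link between matches and decrease was not tested.

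TOS4 and PLM2 encode paralogs, and they parted in S228A. TOS4 (YLR183C, chromosome XII, 520543 to 522012) was at 39.9, 39.9 and 36.2 CPM in WT, 3.20, 2.69 and 3.30 in S228A, and 49.4, 40.7 and 41.1 in S228E. The S228A libraries were far below the other 6, at 52 to 60 counts each, and the log2 fold change of -3.66 ± 0.13 was the most negative of the 10 genes (edgeR adjusted p = 2.83e-10). PLM2 (YDR501W, chromosome IV, 1451353 to 1452918) was at 15.1, 16.1 and 16.9 CPM in WT, 9.93, 12.2 and 10.3 in S228A, and 19.2, 18.1 and 14.7 in S228E. Its S228A values were also all below WT, but the log2 fold change of -0.57 ± 0.13 (edgeR adjusted p = 0.00566) was 1.48-fold and not called.

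Per length, TOS4 stood above PLM2 in each WT library, at 2.81, 2.64 and 2.27 times its level. In S228A it stood below, at 0.343, 0.234 and 0.342 times, so the order of the paralogs turned over in every S228A library. The log2 ratio differed by -3.09 between the strains (exact permutation test, two-sided, p = 0.1, the smallest possible; adjusted p = 0.45). The 3′ end of TOS4 faces that of SWI6 across 191 bases, and these adjacent genes differed in response: SWI6 was at 58.7 CPM or more in each S228A library.

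**Figure D3:**
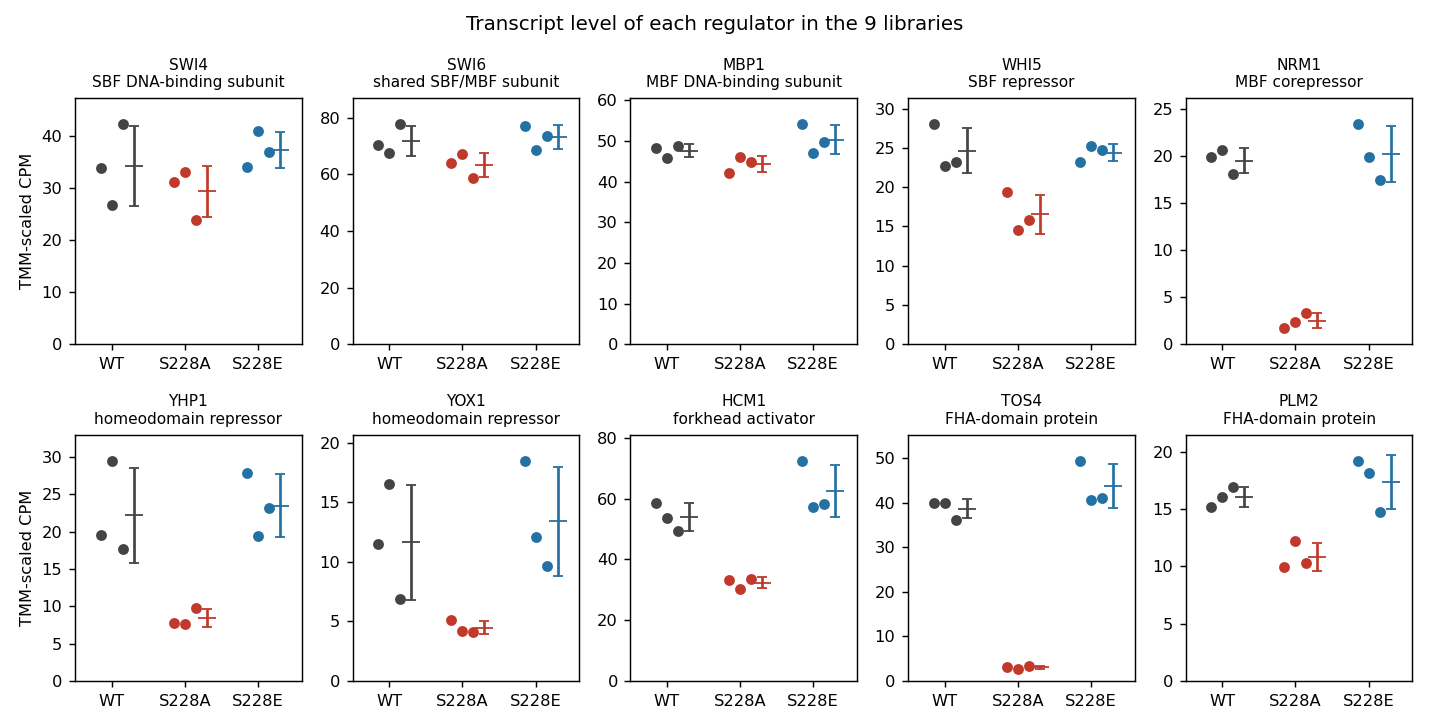
TMM-scaled CPM (y axis from 0, own scale per gene) of each of the 10 genes in the 3 libraries of WT, S228A and S228E; points are libraries, and the bars beside them give mean and SD. For TOS4, NRM1, YHP1, YOX1, HCM1, WHI5 and PLM2 the 3 S228A points lie below the 3 WT points with a visible gap, for SWI6 they lie just below (67.2 against 67.6 CPM), and for SWI4 and MBP1 they overlap.

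In all, 8 of 10 genes had every S228A library below every WT library, where 24.3% of all tested rows did so. At an adjusted p under 0.05 without the fold threshold 7 of 10 passed, where 35% of all rows passed. WHI5 and PLM2, both just short of the fold threshold, were called in some alternative settings: WHI5 in 5 of 16 and PLM2 in 3 of 16. WHI5 was called when WT replicate 2, WT replicate 3 or S228A replicate 1 was left out (log2 -0.63, -0.61 and -0.70), and PLM2 when WT replicate 1 or S228A replicate 2 was left out (log2 -0.61 and -0.65).

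The partners of the switch were mixed in S228A. Of 16 genes listed as partners, 3 were called higher and 4 lower, with a median log2 fold change of -0.01. Over all rows tested, 4.37% were called higher and 7.81% lower. The gene lists used here were chosen with earlier results of these data known. FAR1, the pheromone-induced inhibitor of Cln-Cdc28 that also stands on the pheromone list, was at 244.5 ± 51.0 CPM in S228A and 71.5 ± 4.499 in WT, a log2 increase of 1.77 ± 0.12 (edgeR adjusted p = 2.24e-07). CLN3, the upstream G1 cyclin, was at 197.9 ± 27.6 CPM in S228A and 81.6 ± 8.97 in WT, a log2 increase of 1.28 ± 0.11 (edgeR adjusted p = 1.36e-06). CDC28, the cyclin-dependent kinase, and STB1, a Swi6-binding protein gene, were lower, at log2 -0.90 ± 0.09 and -0.86 ± 0.11 (edgeR adjusted p = 9.88e-06 and 7.44e-05). Without WT replicate 1, 2 of the 16 were called lower in place of 4.

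The targets of the complexes were mostly low. Of 16 SBF targets outside the 10 genes, 10 were called lower and 1 higher, with a median of -1.31. The shares over all rows were 7.81% lower and 4.37% higher. TOS6 fell by 4.33 (SE 0.09), GIN4, a septin-organizing kinase gene, by 2.82 (SE 0.11), the G1 cyclin gene CLN1 by 2.69 (SE 0.10) and CSI2 by 2.34 (SE 0.11) on the log2 scale, with edgeR adjusted p at most 3.26e-09. The exception, named after its value was seen, was the cyclin gene PCL2 at 3.06 ± 0.28 (edgeR adjusted p = 3.32e-06). Without WT replicate 3, 2 SBF targets were called higher in place of 1. Of 26 MBF targets 22 were called lower and 0 higher, with a median of -0.96. RNR1, the large subunit of ribonucleotide reductase, fell from 222.1 ± 53.1 to 26.6 ± 0.363 CPM, and the thymidylate synthase gene CDC21, the DNA polymerase alpha gene POL1 and the flap endonuclease gene RAD27 fell by 1.93 (SE 0.12), 1.36 (SE 0.10) and 1.39 (SE 0.10) on the log2 scale, all 4 with edgeR adjusted p at most 3.60e-07.

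Genes with an early cell cycle box, on which Yox1 and Yhp1 act as repressors with Mcm1, did not move together. Of 8 listed, with SWI4 left out, 2 were called higher and 1 lower, with a median of -0.12. Among all rows 4.37% were called higher and 7.81% lower. CLN3 and MCM5 were higher, and MCM5, a subunit of the replicative helicase, was at log2 0.67 ± 0.10 (edgeR adjusted p = 0.000247). Without WT replicate 2 the MCM5 value was 0.58 and no longer called. MCM3 at 0.33 ± 0.07 and MCM7 at -0.30 ± 0.07 were not called (edgeR adjusted p = 0.00471 and 0.00519). The gene called lower was the licensing factor gene CDC6 at log2 -0.96 ± 0.23 (edgeR adjusted p = 0.00697), named after its value was seen. The 8 genes summed to 518 to 558 CPM in WT and 669 to 727 in S228A, with CLN3 at a mean of 81.6 and 197.9.

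Of 10 Hcm1 targets 8 were called lower, where 7.81% of all rows were. Their log2 fold changes ran from -2.01 to -0.03, with a median of -1.11. The smallest p values were those of the forkhead gene FKH1 at log2 -2.01 ± 0.10 and the microtubule-binding protein gene STU2 at -1.73 ± 0.09. Next came the kinesin gene CIN8 at -1.89 ± 0.12 and the spindle pole gene SPC98 at -1.82 ± 0.14 (edgeR adjusted p at most 4.57e-07 for all of these). Of 7 mitotic transcription factors, a list that shares FKH1, FKH2 and NDD1 with the Hcm1 targets, 5 were called lower, with a median of -1.02. SWI5, which acts at the end of mitosis, fell from 60.0 ± 7.77 to 6.41 ± 1.16 CPM, and NDD1, an activator of G2/M genes, fell by 1.02 (SE 0.09) on the log2 scale. The summed level of the MBF targets was 1080 to 1178 CPM in WT and 502 to 548 in S228A, and that of the Hcm1 targets 436 to 461 and 223 to 226. The pheromone response list had a median of 3.97, and its members with the smallest p were FIG1, PRM3, PRM2 and SST2, at log2 9.93 ± 0.28, 4.44 ± 0.13, 4.11 ± 0.13 and 2.75 ± 0.09.

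**Figure D4:**
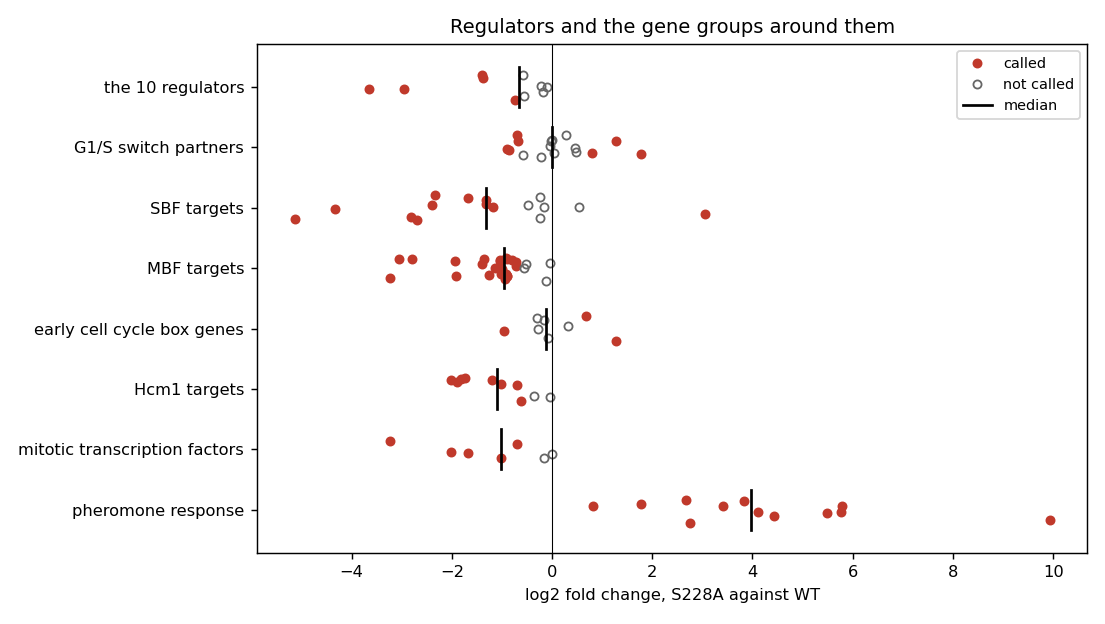
Log2 fold change in S228A against WT (x axis) of every tested gene of the 10 regulators and of 7 gene groups around them, with filled points for genes called, open points for those not called and a bar at the median; vertical scatter within a row has no meaning. The medians of the SBF, MBF and Hcm1 targets are -1.31, -0.96 and -1.11, those of the partners and the early cell cycle box genes -0.01 and -0.12, and that of the pheromone response list 3.97.

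For each of the 10 genes the transcript with the most similar profile over the 9 libraries was looked up, as the smallest root mean square difference of centred log2 CPM among 5546 others at a mean of 5 CPM or more. TOS4 was nearest to the histone gene HTB2 (0.189 log2 units), NRM1 to GIN4 (0.209), YHP1 to SFG1 (0.160), YOX1 to HLR1 (0.204) and HCM1 to SPA2 (0.0736). PLM2 was nearest to ELG1 (0.0809), WHI5 to PMT7 (0.0835), SWI4 to YGL081W (0.0618), SWI6 to ACF4 (0.0454) and MBP1 to CCH1 (0.0408). Of these neighbours HTB2, GIN4, SFG1, HLR1 and SPA2 were called lower in S228A, at log2 -3.996, -2.82, -1.34, -1.002 and -0.77. HLR1 was no longer called without WT replicate 1, WT replicate 2 or S228A replicate 1 (edgeR adjusted p from 0.0525 to 0.0624). The neighbours were picked over the same 9 libraries, so their decrease in S228A follows from the choice and is no separate support. A flat profile has many near neighbours. For MBP1 and PLM2 the second gene was almost as near as the one named, at 0.0409 and 0.0820 log2 units.

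Under the glutamate substitution, S228E against WT, 0 of the 10 genes were called, where 0.0489% of all rows were called. DESeq2 and limma-voom also called 0, and in edgeR 0 of 10 had an unadjusted p under 0.05, where 5.63% of all rows did. Log2 fold changes ran from -0.02 for WHI5 to 0.22 for HCM1, with a median of 0.10 against -0.0037 over all rows (edgeR adjusted p from 0.849 to 0.991). TOS4 was at 43.7 ± 4.93 CPM in S228E and 38.7 ± 2.16 in WT (log2 0.18, 95% interval -0.04 to 0.39), and its 3 S228E values were all higher, as were those of 6.73% of all rows. For NRM1 the log2 difference was 0.06 (95% interval -0.29 to 0.40) and for SWI4 0.12 (-0.22 to 0.46). YOX1 had the widest interval, from -0.40 to 0.83, which also holds changes beyond 1.5-fold. All other upper and lower bounds of the 10 genes lay within 1.5-fold. No gene of the 7 surrounding groups was called in S228E.

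S228E was then set against S228A, a comparison that shares its S228A libraries with the first. Of the 10 genes 6 were called higher in S228E and 0 lower, where 11.1% of all rows were called, 6.73% higher and 4.35% lower. They were TOS4 at log2 3.84 ± 0.13, NRM1 at 3.02 ± 0.19, YOX1 at 1.60 ± 0.31, YHP1 at 1.49 ± 0.20, HCM1 at 0.96 ± 0.10 and PLM2 at 0.68 ± 0.13 (edgeR adjusted p at most 0.00186). WHI5 at 0.56 ± 0.12 passed the adjusted p (0.00457, edgeR) but was 1.47-fold, and SWI4, SWI6 and MBP1 at 0.34, 0.21 and 0.18 did not pass (edgeR adjusted p = 0.121, 0.0705 and 0.0862). At the adjusted p alone 7 of 10 passed, where 29.7% of all rows passed. In 10 of 10 genes every S228E library was above every S228A library, where 22.7% of all rows were. The TOS4 to PLM2 ratio per length was 2.74, 2.39 and 2.97 in S228E, all above 1 as in WT.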

How the data were processed

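The authors deposited raw counts per annotated gene for 9 RNA-seq libraries, whole numbers without normalization. Per the file headers, featureCounts 2.0.1 summed exons by gene ID on alignments treated as paired, with the sacCer3 Ensembl annotation and no option for strand, multiply placed or overlapping reads. The submitters' processing notes name Bowtie 0.12.2 without a role, and no other aligner is given. The labels' extraction text describes chromatin immunoprecipitation, while the design text describes phenol-chloroform total RNA. Columns were matched to strains by letter and replicate number.

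Low rows were removed by filterByExpr. Counts with TMM factors entered edgeR 4.0.16 (R 4.3.3; glmQLFit, glmQLFTest) in 1 fit over 9 libraries with a term per strain. Totals ranged from 14455017 to 19658103, TMM factors from 0.972 to 1.03, and the common biological coefficient of variation was 9.61%. Standard errors are the log2 fold change over the root of F, and intervals use the t distribution. DESeq2 1.42.0, limma 3.58.1 (voom), other scalings and filters, a replicate block and leaving out each library were alternatives. The test was checked on simulated counts. Same-numbered libraries did not deviate together (correlations from -0.251 to 0.229, 1 of 9 over 0.1). No replicate pair was alike within sampling noise (chi-square 6.32 to 58.1 per gene). Gene symbols came from RefSeq R64 by locus tag (6047 of 7127 rows).

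The 10 genes and the 7 lists were chosen with earlier results of these data known. From each list up to 4 genes with the smallest p in S228A against WT are named, besides the 10 genes and the nearest profile of each; 1 gene that this rule names is not reported here.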

Additional observations from a re-analysis of the deposited data

How the results depend on the processing

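Of the 10 genes, 5 to 7 were called lower in S228A, 0 were called in S228E against WT and 6 or 7 were higher in S228E against S228A under each of 17 alternatives; with the replicate block the counts were 5, 0 and 6. Adjusted p alone passed 2144 rows in S228A against WT (747 with the fold threshold) and 1822 in S228E against S228A (680). S228E against WT called 3 rows, 5 with DESeq2, 1 with the replicate block, 1 with only the 6 libraries compared and 1 to 2 with a library left out. The cause was not tested. Values near 0 turned sign. In S228E against WT, SWI6 was at log2 -0.00017 with upper-quartile scaling and WHI5 at 0.0066 with library totals. With 1 library left out, S228E against WT ranged from -0.022 to 0.30 for SWI4, -0.018 to 0.085 for SWI6, -0.069 to 0.085 for WHI5, -0.063 to 0.15 for NRM1, -0.063 to 0.34 for YHP1 and -0.097 to 0.55 for YOX1, and S228A against WT from -0.34 to 0.052 for YGL081W. Ratio differences (log2) ranged likewise. SWI4/SWI6 was -0.15 to 0.079 in S228A against WT and -0.0035 to 0.22 in S228E against WT, and SWI4/MBP1 -0.24 to 0.047 and -0.072 to 0.21. YHP1/YOX1 was -0.25 to 0.11 in S228A against WT, -0.35 to 0.051 in S228E against WT and -0.27 to 0.11 between the substitutions. In S228E against WT, TOS4/PLM2 was -0.017 to 0.15 and NRM1/WHI5 -0.089 to 0.17. Among early cell cycle box genes 0 in place of 1 was called lower at a mean of 5 CPM or more, since CDC6 was then not tested. Depth limits NRM1 and TOS4 in S228A, at 31 to 61 counts per library.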

Other observations

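Within WT, SWI4 and the genes of the homeodomain repressors differed between libraries in opposite order. Replicate 2 had the lowest SWI4 (26.8 CPM) with the highest YHP1 (29.4 CPM) and YOX1 (16.5 CPM), and replicate 3 had the highest SWI4 (42.3 CPM) with the lowest YHP1 (17.6 CPM) and YOX1 (6.86 CPM). With 3 libraries this was not tested. In S228E, YOX1 and YHP1 were highest in replicate 1 (18.5 and 27.8 CPM), where SWI4 was lowest (34.1 CPM). SWI4 was highest in S228E replicate 2 (41.0 CPM), where YHP1 was lowest (19.4 CPM), but YOX1 was lowest in replicate 3 (9.64 CPM). In S228A, SWI4 was lowest in replicate 3 (23.9 CPM), where YHP1 was highest (9.80 CPM) and YOX1 lowest (4.13 CPM). So in both substitution strains the opposite order held for YHP1 and broke for YOX1, which was not tested either.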
